A study of Arabidopsis thaliana and Marchantia polymorpha and Mesotaenium endlicherianum with 120 samples.

Results

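Transcripts of 9 genes that take up nitrate, reduce it to ammonium and store the nitrogen in amino acids were followed in seedlings of the flowering plant Arabidopsis thaliana grown in cool or warm air under dim or brighter light. The 9 were taken by their locus identifiers from the 32833 genes of the count table, a set proposed with earlier results of these data known although its rule uses no measured value: the nitrate transporters NRT1.1 (AT1G12110) and NRT2.1 (AT1G08090), the nitrate reductases NIA1 (AT1G77760) and NIA2 (AT1G37130), the nitrite reductase NIR1 (AT2G15620), the plastid glutamine synthetase GLN2 (AT5G35630), the ferredoxin-dependent glutamate synthase GLU1 (AT5G04140), and the asparagine synthetases ASN1 (AT3G47340) and ASN2 (AT5G65010). All 9 were among the 22828 genes with enough counts to be tested. All seedlings were 7 days old at harvest. They first had 2 days at 20 °C under 100 µmol of white light a square metre each second, always on, and then 5 days of treatment. The treatment was cool (16 °C) or warm (24 °C) air in white light, again always on, at 10 ("dim", or light 10) or 100 ("bright", or light 100) of that unit. The lines were the wild type Col-0 and the mutants Atpif4-2, Atphyb-9 and Athy5-2, 1 mutant line for each of the genes PIF4, PHYB and HY5, with 3 libraries in each of 16 groups. Whether the 3 libraries came from separate sets of plants is not stated, so p-values measure the spread between these libraries.

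Nitrate enters plant cells through transporters, is reduced to nitrite by nitrate reductase in the cytosol and to ammonium by nitrite reductase in the plastid, and the ammonium is joined to glutamate by glutamine synthetase and shared out by glutamate synthase. Asparagine synthetase moves the amide nitrogen of glutamine to aspartate; asparagine carries much nitrogen per carbon, and ASN1, also known as DIN6, is a classic gene of darkened or sugar-starved leaves. PIF4 is a transcription factor that promotes growth in warmth and shade, PHYB is the red-light photoreceptor phytochrome B, which also senses temperature, and HY5 is a transcription factor that promotes light responses and binds DNA motifs with an ACGT core. Atpif4-2, Atphyb-9 and Athy5-2 are each 1 allele, and no second allele was analysed here.

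The 250 bases before the annotated start of ASN1, ASN2, NIA1 and NIA2 are shown because the results turn on these 2 pairs of related enzymes, and because motifs of light- and temperature-regulated factors can be read in them. They come from the RefSeq annotation of build TAIR10.1 and are written 5′ to 3′ on the gene's strand; the build behind the counts is not given in the sources used here. Capitals mark ACGT, or the whole G-box CACGTG where the ACGT lies in one. The windows are chr3:17441432-17441681 on the minus strand for ASN1, chr5:25968785-25969034 on the plus strand for ASN2, chr1:29239485-29239734 on the minus strand for NIA1 and chr1:14158202-14158451 on the plus strand for NIA2.
ASN1: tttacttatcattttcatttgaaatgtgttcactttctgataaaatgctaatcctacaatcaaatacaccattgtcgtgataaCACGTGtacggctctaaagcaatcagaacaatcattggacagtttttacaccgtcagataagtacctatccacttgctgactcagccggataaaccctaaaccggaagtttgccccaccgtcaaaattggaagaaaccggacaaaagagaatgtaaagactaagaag
ASN2: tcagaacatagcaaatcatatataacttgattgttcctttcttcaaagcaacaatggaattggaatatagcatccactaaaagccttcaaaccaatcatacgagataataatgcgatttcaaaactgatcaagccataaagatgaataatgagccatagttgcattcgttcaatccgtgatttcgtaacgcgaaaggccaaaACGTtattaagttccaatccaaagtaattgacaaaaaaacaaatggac
NIA1: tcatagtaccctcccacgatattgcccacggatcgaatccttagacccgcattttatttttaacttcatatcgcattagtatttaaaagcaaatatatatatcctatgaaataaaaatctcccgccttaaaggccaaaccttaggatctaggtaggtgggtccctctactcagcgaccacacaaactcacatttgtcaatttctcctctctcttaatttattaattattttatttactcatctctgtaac
NIA2: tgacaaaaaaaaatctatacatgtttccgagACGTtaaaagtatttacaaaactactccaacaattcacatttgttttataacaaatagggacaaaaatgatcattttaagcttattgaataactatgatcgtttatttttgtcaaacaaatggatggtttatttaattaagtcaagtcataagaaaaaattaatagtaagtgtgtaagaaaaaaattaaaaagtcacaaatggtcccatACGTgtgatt
Of the 9 genes, ASN1 alone had a G-box in this window, starting 167 bases before the gene's start; the motif reads the same on both strands and was present in 6.49% of the windows of 27443 protein-coding genes. ACGT itself, which is part of every G-box, was present in 4 of the 9 windows (NIA2 at 219 and 10 bases, GLN2 at 51, ASN1 at 166 and ASN2 at 48) against 44.1% of all windows. GATAAG, searched on both strands, was in 2 of the 9 windows (NRT2.1 and ASN1) against 12.3% of all windows, and ACTCAT, likewise on both strands, in 2 (NRT1.1 and NIA1) against 12.3%. These are matches of letters and no binding was measured.

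The 48 libraries held 30806701 to 44043446 counts. The share of counts on 4 ribosomal RNA genes was higher in dim light, with a median of 5.71% and a range of 0.667 to 21.8% at light 10, against a median of 0.547% and a range of 0.302 to 9.37% at light 100. Every comparison between lights also crosses that difference. The 9.37% was that of Atphyb-9 replicate 1 in warm bright light, whose group mates were at 0.944 and 0.427%. In warm dim light the share also differed between lines. It was 1.81 to 3.99% in Col-0, 0.667 to 3.08% in Atpif4-2, 9.02 to 18.3% in Atphyb-9 and 16.5 to 21.8% in Athy5-2. With the share as a covariate 20 of the calls on the 9 genes were lost; those of Col-0 are given with the gene, and all are named with the processing alternatives. None of the 12 root and 6 shoot marker genes was at 0 in every library of a group; their summed levels ran from 1297 to 2948 and from 41387 to 231769 CPM (CPM, counts per 1000000 counts of a library after TMM adjustment). In these whole seedlings fewer cells of an organ cannot be told apart from less RNA per cell. The mutated genes passed the test as lower in their mutants in 10 of 12 comparisons. PIF4 was at 25.3 ± 3.76 CPM in Atpif4-2 and 51.4 ± 0.913 in Col-0 in cool dim light but at 10.4 ± 0.393 and 11.7 ± 0.997 in cool bright light (SD, n = 3), and HY5 was at 5.57 ± 1.05 in Athy5-2 and 6.39 ± 1.09 in Col-0 in cool dim light, so in those 2 groups the level of the transcript does not tell mutant from wild type.

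Levels are given in CPM and differences as log2 changes. A gene was called changed where edgeR's quasi-likelihood test gave a Benjamini-Hochberg adjusted p under 0.05 over all tested genes. Per kilobase of annotated exon, NIA2 and GLN2 were the most abundant of the 9 in every Col-0 group, with NIA2 at 801 ± 43.2 CPM per kilobase in cool dim light and GLN2 at 563 ± 41.9 in cool bright light (SD, n = 3). NRT2.1 was the least abundant in every Col-0 group, at 0.0511 to 1.09 CPM per kilobase. Over the 16 group means the level of ASN1 varied 31.5-fold, from 8.93 CPM in Atpif4-2 in cool bright light to 281 CPM in Athy5-2 in cool dim light, whereas GLN2 varied 1.87-fold. ASN2 varied 2.02-fold, NIR1 2.58-fold, NRT1.1 2.59-fold, GLU1 2.78-fold, NIA2 3.03-fold and NIA1 3.04-fold; the range of NRT2.1 has no such ratio, since its lowest group held 2 counts in all.

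**Figure D1:**
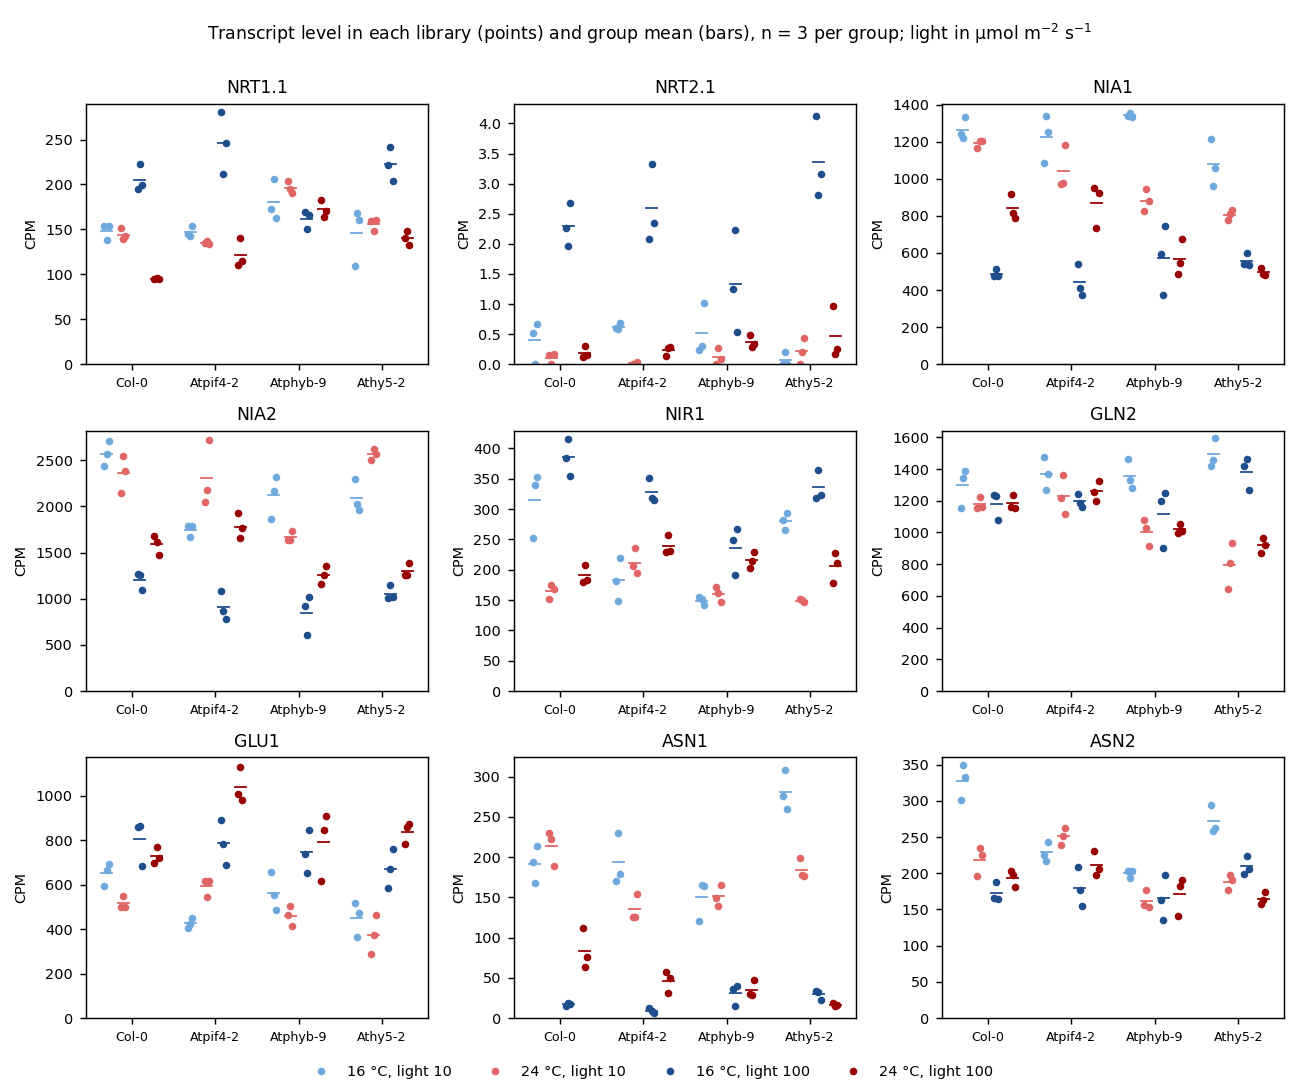
Level of each of the 9 genes in CPM (linear axes from 0) in every library, as points, with the mean of the 3 libraries of a group as a bar; colours give temperature and light, and the lines stand side by side. ASN1 was high at light 10 and low at light 100 in every line, GLN2 varied least, and NRT2.1 stayed under 5 CPM.

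In Col-0 the 9 genes did not move as a block: in 3 of the 4 comparisons of warmth or light some rose and others fell, and the warmth response differed between the lights for 4 of the 9. Warmth (24 against 16 °C) at light 10 changed 2 of the 9, both lower (NIR1 and ASN2). Of all tested genes 22.8% were called in that comparison, 11.4% higher and 11.4% lower. At light 100 warmth changed 6, of which NIA1, NIA2 and ASN1 rose and NRT1.1, NRT2.1 and NIR1 fell. Of all genes 35.9% were called, 18.9% higher and 17.0% lower. Light (100 against 10) at 16 °C changed 6, with NRT1.1 and NRT2.1 higher and NIA1, NIA2, ASN1 and ASN2 lower, against 37.0% of all genes (17.4% higher, 19.6% lower). At 24 °C light changed 5, with GLU1 higher and NRT1.1, NIA1, NIA2 and ASN1 lower, against 28.6% of all genes (14.2% higher, 14.4% lower). The warmth response at light 100 differed from that at light 10 for 4 of the 9, downward for NRT1.1 and upward for NIA1, ASN1 and ASN2, against 7.17% of all genes (4.55% upward, 2.62% downward). These comparisons share groups, so they are not independent of each other.

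**Figure D2:**
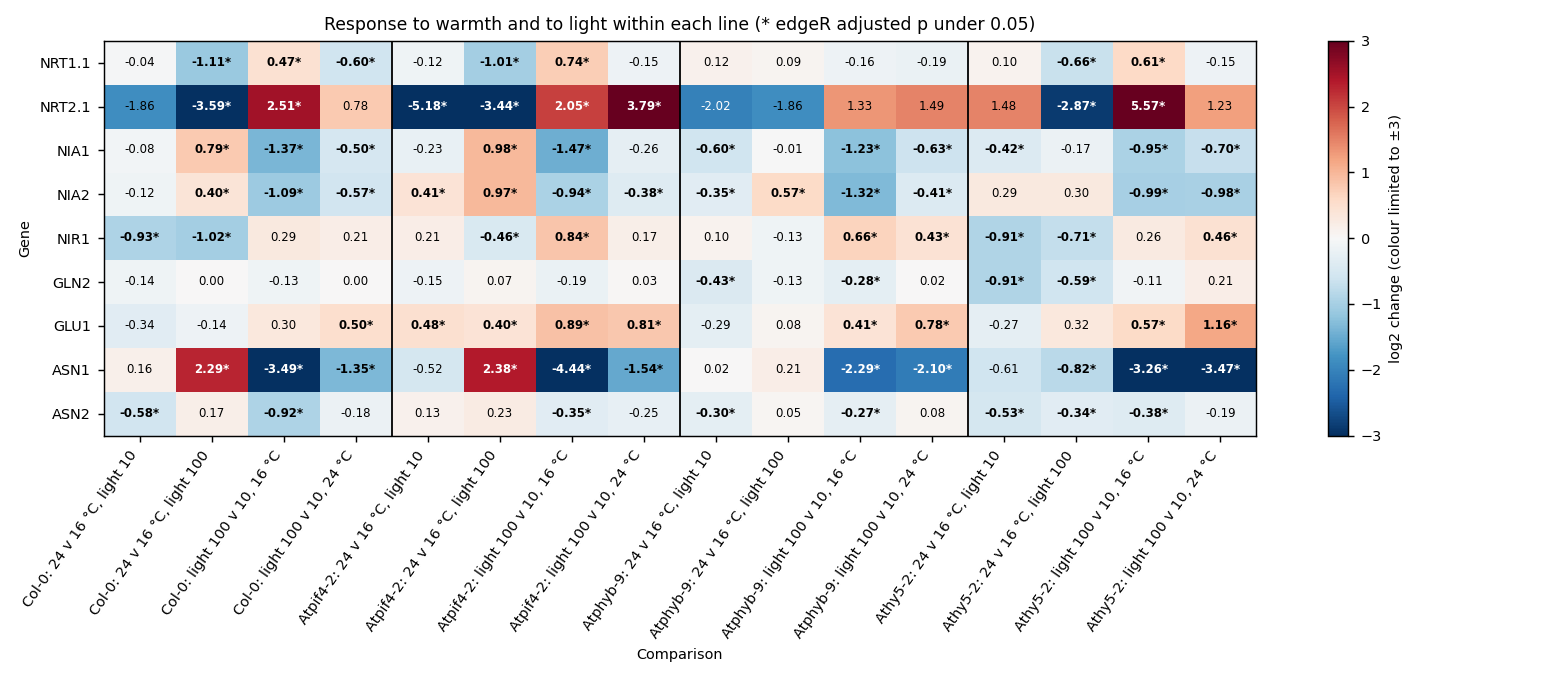
Log2 change of each of the 9 genes for warmth at each light and for light at each temperature in Col-0 and in the 3 mutants (columns), with red for higher and blue for lower and an asterisk for an edgeR adjusted p under 0.05. The row of ASN1 has 2.29 for warmth at light 100 in Col-0 and -0.82 in Athy5-2; the NRT2.1 changes of Atpif4-2 that involve warm dim light rest on a group with 2 counts.

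Of the transporters, NRT1.1, the dual-affinity carrier that also senses nitrate, was highest in cool bright light and lowest in warm bright light in Col-0. Its level was 154, 138 and 154 CPM in cool dim light and 151, 139 and 142 CPM in warm dim light. At light 100 it was 195, 222 and 199 CPM at 16 °C and 94.7, 95.5 and 94.8 CPM at 24 °C. The light 100 libraries of each temperature stood clear of each other and of both light 10 groups, while the 2 light 10 groups overlapped. The change with warmth was -1.11 ± 0.11 (SE) at light 100 (edgeR adjusted p = 1.81e-10) and -0.04 at light 10, and their difference was -1.07 ± 0.16 (edgeR adjusted p = 5.89e-06); light raised the gene at 16 °C (0.47, edgeR adjusted p = 0.000766) and lowered it at 24 °C (-0.60, edgeR adjusted p = 4.71e-05). In Atphyb-9 the same warmth step at light 100 gave 0.09 (95% interval -0.14 to 0.32), from 169, 151 and 166 CPM to 183, 164 and 170.0 CPM, and the response differed from that of Col-0 by 1.203 ± 0.16 (edgeR adjusted p = 6.7e-07). In Atpif4-2 the fall was -1.01 ± 0.11, and its difference from Col-0 was 0.10 (95% interval -0.22 to 0.42).

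NRT2.1, the high-affinity nitrate transporter, was the least abundant of the 9, with 0 to 27 counts a library in the groups of Col-0 other than cool bright light and 105 to 124 counts there. In Col-0 it was at 0.523, 0 and 0.662 CPM in cool dim light, at 0.149, 0 and 0.174 in warm dim light, at 2.27, 1.96 and 2.67 in cool bright light, and at 0.119, 0.301 and 0.144 in warm bright light. The cool, bright group was the highest and overlapped none of the others. Warmth at light 100 lowered it by -3.59 ± 0.84 on the log2 scale (edgeR adjusted p = 0.000737). Its rise with light at 16 °C (2.51 ± 0.80, edgeR adjusted p = 0.0112) was lost without replicate 2 in cool dim light (edgeR adjusted p = 0.0601), and with the ribosomal RNA share as a covariate (edgeR adjusted p = 0.0544). The cool, bright group was also the highest of its line in all 3 mutants, at 2.08, 3.33 and 2.35 CPM in Atpif4-2, 1.26, 2.22 and 0.529 in Atphyb-9 and 4.12, 2.81 and 3.17 in Athy5-2, although in Atphyb-9 it overlapped the dim, cool group. In Atpif4-2 the warm dim group held 2 counts against 59 at 16 °C, a ratio of 43.3 with a counting interval of 11.5 to 366 (exact, 95%). Of its annotated exon sequence 8.86% of 50-base words also occur in its neighbour NRT2.2 (AT1G08100), so some counts may belong to either gene.

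Among 18 other nitrate transport genes, 16 were tested. Warmth at light 100 raised 7 and lowered 4 in Col-0, with a median change of 0.30 against 0.01 over all genes; light at 16 °C raised 3 and lowered 8 (median -0.35 against 0.02), and light at 24 °C raised 2 and lowered 8. Warmth at light 10 raised 2 and lowered 3, and that count of 5 fell to 3 when replicate 1 or 3 of the warm dim group was left out. The interaction was positive for 6 and negative for 1. In the order given, 35.9, 37.0, 28.6, 22.8 and 7.17% of all genes were called in these comparisons. NPF7.3, which loads nitrate into the xylem, rose with warmth at light 100 from 60.8 to 149 CPM (1.29 ± 0.13, edgeR adjusted p = 1.48e-10) and fell with light at 16 °C (-1.56 ± 0.13). NPF1.2, which moves nitrate from xylem to phloem, rose with warmth at light 100 from 9.12 to 25.0 CPM (1.46 ± 0.14), and the anion channel gene SLAH3 from 26.7 to 57.7 CPM (1.11 ± 0.12). NRT3.1, the partner protein that NRT2.1 needs for transport, fell from 51.6 to 25.5 CPM (-1.02 ± 0.14, edgeR adjusted p = 2.80e-07). NRT2.3 had no count in Col-0 in warm dim light and 217 counts over the 3 libraries at 16 °C, at least 86.1-fold lower when 3 counts over the group are taken as the limit. The summed root markers were at 2214 to 2308 CPM in Col-0 in cool bright light and at 2166 to 2468 CPM at 24 °C, so they overlapped between these groups. In cool dim light they were at 1630 to 1852 CPM, below all cool bright libraries, so their sum was higher in the group in which NRT1.1 and NRT2.1 were higher. Its part in those changes with light was not tested.

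In Col-0 the nitrate reductases, which catalyse the first step of reduction, were higher in dim light, and in bright light they were higher in the warmth. NIA1 was at 1239.7, 1220.1 and 1332 CPM in Col-0 in cool dim light and at 1167, 1207 and 1204 CPM at 24 °C, and at light 100 it was at 474, 516 and 475 CPM at 16 °C and 919, 815 and 791 CPM at 24 °C. The bright groups stood below the dim ones, and the cool bright group below the warm bright one, with no overlap. The warmth response was 0.79 ± 0.15 at light 100 (edgeR adjusted p = 3.66e-05) and exceeded that at light 10 by 0.87 ± 0.21 (edgeR adjusted p = 0.00481). NIA2 was at 2434, 2562 and 2711 CPM in cool dim light and at 2149.7, 2548 and 2379.8 at 24 °C. At light 100 it was at 1271, 1261 and 1090.1 CPM at 16 °C and at 1684, 1616 and 1469.9 at 24 °C. Bright groups were again below dim ones with no overlap (-1.09 ± 0.13 at 16 °C, edgeR adjusted p = 6.33e-09). Its smaller rise with warmth at light 100 (0.40 ± 0.13, edgeR adjusted p = 0.0124) was not called without replicate 3 of the cool group (edgeR adjusted p = 0.0747) or replicate 1 of the warm group (edgeR adjusted p = 0.0588), and its interaction of 0.52 missed the threshold (edgeR adjusted p = 0.0706).

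NIA1 rose with warmth at light 100 in Atpif4-2 (0.98 ± 0.15, edgeR adjusted p = 1.31e-06) as in Col-0, but gave -0.01 in Atphyb-9 (95% interval -0.30 to 0.29) and -0.17 in Athy5-2 (-0.47 to 0.13). The Athy5-2 libraries were at 542, 599 and 535 CPM at 16 °C and 518, 489 and 484 CPM at 24 °C, all of the warm ones below the Col-0 warm libraries. The response differed from that of Col-0 by -0.96 ± 0.21 in Athy5-2 (edgeR adjusted p = 0.000765) and by -0.79 ± 0.21 in Atphyb-9 (edgeR adjusted p = 0.0076, or 0.0723 without replicate 3 of Atphyb-9 in cool bright light). NIA2 rose under the same step in Atphyb-9 (0.57 ± 0.13, edgeR adjusted p = 0.000901), from 918, 609 and 1018 CPM to 1165, 1253 and 1350.3 CPM. Its mean also rose in Atpif4-2, from 911 to 1782 CPM, which was called. In Athy5-2 it went from 1057 to 1299 CPM, which was not called. In every line both reductases fell with light at 16 °C, NIA1 by -0.95 to -1.47 and NIA2 by -0.94 to -1.32, all 8 changes with the libraries of the lights apart.

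NIR1, which reduces nitrite to ammonium, was lower in the warmth at both lights in Col-0 and passed no test for light. Its level was 252, 340.5 and 352 CPM in cool dim light, 152, 175 and 168 in warm dim light, 384, 416 and 355 in cool bright light, and 179.9, 209 and 183 in warm bright light. The warm libraries were below the cool ones at both lights. The changes with warmth were -0.93 ± 0.12 (edgeR adjusted p = 2.12e-07) and -1.02 ± 0.12 (edgeR adjusted p = 1.26e-08), and their difference was -0.08. Athy5-2 showed falls of -0.91 and -0.71. In Atphyb-9 the changes with warmth were 0.10 (95% interval -0.14 to 0.35) at light 10 and -0.13 (-0.37 to 0.12) at light 100, and the responses differed from those of Col-0 by 1.04 ± 0.17 and 0.89 ± 0.17 (edgeR adjusted p = 2.6e-05 and 0.000358). In the cool the mutant was at 154, 152 and 141 CPM at light 10 and at 248, 191 and 267 CPM at light 100, all below the Col-0 libraries (-1.08 ± 0.12 and -0.71 ± 0.12, edgeR adjusted p = 7.28e-09 and 4.68e-05). In Atpif4-2 in cool dim light NIR1 was at 182, 148 and 219.7 CPM, below all Col-0 libraries (-0.78 ± 0.12, edgeR adjusted p = 2.04e-05), and its warmth response at light 10 differed from that of Col-0 by 1.14 ± 0.17 (edgeR adjusted p = 1.9e-05).

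Of 13 genes that supply the molybdenum cofactor, sirohaem and reductant of these enzymes, warmth lowered 6 and raised none at light 100 in Col-0, lowered 5 and raised 1 at light 10, and light raised 5 and lowered 1 at 16 °C and raised 4 and lowered 2 at 24 °C; the interaction was negative for 4 and positive for none. Their median changes were -0.15, -0.07, 0.14 and 0.11, and -0.15 for the interaction. In the same order 35.9, 22.8, 37.0 and 28.6% of all genes were called, and 7.17% for the interaction. RFNR2, a root-type ferredoxin reductase, fell with warmth at light 100 from 96.7 to 18.8 CPM (-2.36 ± 0.15, edgeR adjusted p = 5.18e-16) and G6PD3, a plastid glucose-6-phosphate dehydrogenase, from 30.3 to 9.35 CPM (-1.70 ± 0.13). UPM1, which makes the precursor of the sirohaem of nitrite reductase, fell from 169 to 93.9 CPM (-0.84 ± 0.11).

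GLN2, which captures ammonium in the plastid, passed no test in Col-0. Its Col-0 libraries lay between 1080.4 and 1389 CPM, the 4 groups overlapped, and the 95% interval of its warmth change at light 100 was -0.22 to 0.23. In Athy5-2 it fell with warmth at both lights, from 1421, 1459 and 1595 CPM to 643, 811 and 935 CPM at light 10 (-0.91 ± 0.11, edgeR adjusted p = 1.41e-08) and from 1418, 1465 and 1268 CPM to 872, 967 and 920.1 CPM at light 100 (-0.59 ± 0.11, edgeR adjusted p = 2.84e-05). All warm Athy5-2 libraries were below all cool ones. These responses differed from those of Col-0 by -0.77 ± 0.16 (edgeR adjusted p = 0.000283) and -0.59 ± 0.16 (edgeR adjusted p = 0.00526). The Athy5-2 libraries in warm dim light were also those with the highest ribosomal RNA share, at 16.5 to 21.8%, and those in warm bright light had 0.302 to 0.407%. The summed shoot markers moved the same way in Athy5-2, from 179623 to 231769 CPM at 16 °C down to 93947 to 159882 CPM at 24 °C in light 10, and from 106237 to 130059 CPM down to 41387 to 52363 CPM in light 100. In Col-0 they went from 119031 to 131159 CPM down to 84734 to 90321 CPM and from 84392 to 92395 CPM down to 66666 to 70460.2 CPM. Their part in the changes of GLN2, and of ASN1 in the same groups, was not tested.

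GLU1, the leaf glutamate synthase that recycles photorespiratory ammonium, rose with light at 24 °C in every line. In Col-0 it was at 592, 664 and 695 CPM in cool dim light and at 499.7, 547 and 498 in warm dim light, against 861, 864 and 685 in cool bright light and 695, 769 and 720.2 in warm bright light. The lights were apart at 24 °C and overlapped at 16 °C. The rise at 24 °C was 0.50 ± 0.15 in Col-0 (edgeR adjusted p = 0.00748, or 0.226 with the ribosomal RNA share as a covariate). It was 0.81 ± 0.15 in Atpif4-2, 0.78 ± 0.15 in Atphyb-9 and 1.16 ± 0.15 in Athy5-2 (edgeR adjusted p = 4.83e-05, 4.19e-05 and 8.64e-09). In Atpif4-2 in cool dim light it was at 406, 421 and 449 CPM, below all Col-0 libraries (-0.61 ± 0.15, edgeR adjusted p = 0.00234). The gene overlaps BHLH101 (AT5G04150) by 79 bases on the other strand; the counts of that neighbour were at most 2.28% of those of GLU1.

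Among 18 further genes of ammonium and amide metabolism, light at 16 °C raised 10 and lowered 1 in Col-0 (median 0.45 against 0.02 over all genes), and warmth at light 100 raised 2 and lowered 8 (median -0.55 against 0.01). Light at 24 °C raised 4 and lowered none, and warmth at light 10 lowered 5 and raised none. That last count was 3 and 2 without replicate 1 and replicate 3 in warm dim light, and 10 when Col-0 was fitted alone. In the order given, 37.0, 35.9, 28.6 and 22.8% of all genes were called in these comparisons. The plastid aspartate aminotransferase ASP5 rose with light at 16 °C from 81.9 to 144 CPM (0.82 ± 0.09, edgeR adjusted p = 5.37e-10) and fell with warmth at light 100 to 79.4 CPM (-0.86 ± 0.09). Warmth at light 100 also lowered GLU2, the second ferredoxin-dependent glutamate synthase (-0.95 ± 0.12), and GLN1;1, a cytosolic glutamine synthetase (-0.998 ± 0.15). The interaction was called negative for GLU2 and ASP5 and positive for GDH1, against 7.17% of all genes called. The number called for this list fell to 0 or 1 without some single Col-0 libraries and was 5 with the ribosomal RNA share as a covariate. ASN3, the remaining asparagine synthetase gene, rose with light at 16 °C from 10.9 to 17.6 CPM (0.69 ± 0.15, edgeR adjusted p = 0.000317), where ASN1 and ASN2 fell.

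ASN1 had the widest swings of the 9 genes other than NRT2.1. In Col-0 it was at 194, 167 and 213 CPM in cool dim light and at 230.3, 222 and 188 CPM in warm dim light. At light 100 it was at 14.5, 18.8 and 17.9 CPM at 16 °C and at 112, 63.0 and 75.5 CPM at 24 °C. The dim groups overlapped each other and stood above both bright groups, and the cool bright libraries were all below the warm bright ones. Light lowered it 11.2-fold at 16 °C (-3.49 ± 0.29, edgeR adjusted p = 1.31e-11) and 2.56-fold at 24 °C (-1.35 ± 0.27, edgeR adjusted p = 0.000168). Warmth raised it 4.89-fold at light 100 (2.29 ± 0.28, edgeR adjusted p = 4.41e-08), gave 0.16 at light 10 (95% interval -0.37 to 0.69), and the responses differed by 2.133 ± 0.38 (edgeR adjusted p = 0.000204).

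The rise of ASN1 with warmth at light 100 was present in Atpif4-2 and not in the other mutants. Atpif4-2 went from 12.3, 8.54 and 5.97 CPM to 57.7, 31.3 and 50.1 CPM (2.38 ± 0.28, edgeR adjusted p = 3.6e-08), and its response differed from that of Col-0 by 0.09 (95% interval -0.68 to 0.85). Atphyb-9 went from 36.2, 15.5 and 40.0 CPM to 30.0, 29.0 and 47.0 CPM, with overlapping groups and a change of 0.21 (95% interval -0.33 to 0.75). Athy5-2 went down, from 33.9, 32.0 and 21.9 CPM to 19.0, 14.3 and 16.5 CPM with no overlap (-0.82 ± 0.27, edgeR adjusted p = 0.0126), a call that was lost without Athy5-2 replicate 1 at 16 °C (edgeR adjusted p = 0.0623) or replicate 2 at 24 °C (0.0586). The response differed from that of Col-0 by -2.08 ± 0.38 in Atphyb-9 (edgeR adjusted p = 0.00023) and by -3.11 ± 0.38 in Athy5-2 (edgeR adjusted p = 7.43e-07). In both mutants ASN1 was called higher than Col-0 in 1 condition and lower in 1. In cool bright light its mean was 30.6 CPM in Atphyb-9 and 29.3 CPM in Athy5-2, against 17.1 CPM in Col-0. The Atphyb-9 libraries there overlapped those of Col-0, and the Athy5-2 libraries did not. In warm bright light ASN1 was 5.03-fold lower in Athy5-2 than in Col-0 (-2.33 ± 0.28, edgeR adjusted p = 1.79e-07) and 2.36-fold lower in Atphyb-9 (-1.24 ± 0.27, edgeR adjusted p = 0.0017). In Atpif4-2 the difference there was -0.85 with the libraries apart, and it missed the threshold (edgeR adjusted p = 0.205, which was 0.0682 to 0.269 over the alternative settings that kept every library).

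Light lowered ASN1 in every line at both temperatures, by -2.29 to -4.44 at 16 °C and by -1.35 to -3.47 at 24 °C. At 24 °C the fall in Athy5-2 exceeded that in Col-0 by -2.12 ± 0.38 (edgeR adjusted p = 6.22e-05). Ordered by their means, the 8 dim groups of ASN1 were the 8 highest of the 16 and the 8 bright groups the 8 lowest, and the lowest dim library, at 121 CPM, was above the highest bright one, at 112 CPM. In that order, 9 of the 15 neighbouring pairs of groups had overlapping libraries. The pairs that did not overlap were, at light 10, Athy5-2 at 16 °C and Col-0 at 24 °C, Athy5-2 and Atphyb-9 at 24 °C, and, across the lights, Atpif4-2 in warm dim light and Col-0 in warm bright light. The other 3 were, at light 100, Col-0 and Atpif4-2 at 24 °C, Athy5-2 and Col-0 at 16 °C, and Athy5-2 at 24 °C and Atpif4-2 at 16 °C. For the other genes 12 to 15 of the 15 neighbouring pairs overlapped.

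**Figure D3:**
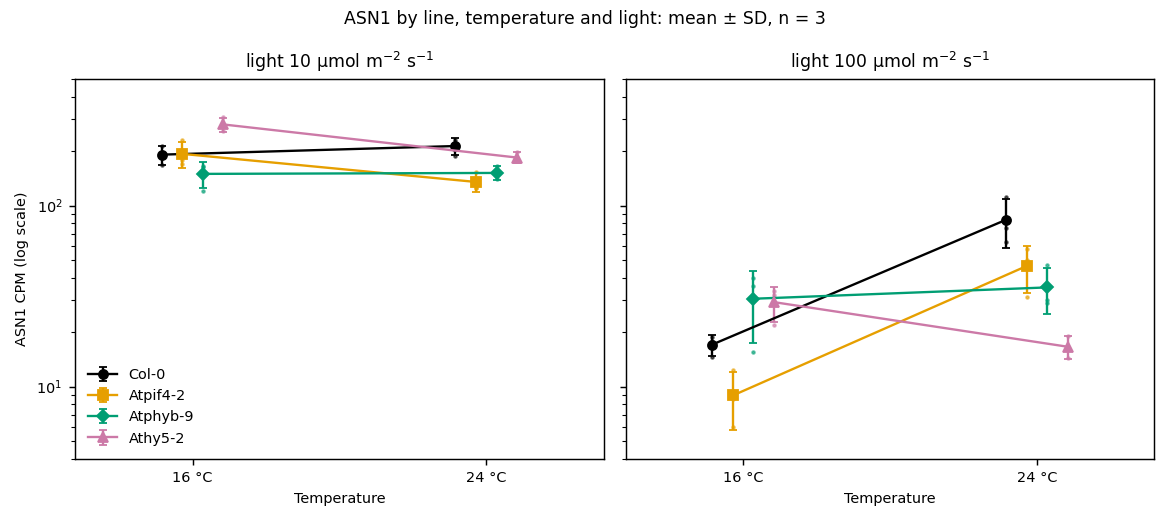
ASN1 level in CPM (log axis) at 16 and 24 °C in light 10 (left) and light 100 (right) for the 4 lines; large symbols with bars are means ± SD of 3 libraries and small points the libraries. At light 100 the line of Col-0 climbs from 17.1 to 83.6 CPM and that of Athy5-2 descends from 29.3 to 16.6 CPM.

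ASN2, the asparagine synthetase gene with the more even level, behaved otherwise. In Col-0 it was at 301, 349 and 332 CPM in cool dim light and at 197, 235 and 225 in warm dim light. It was at 166, 188 and 165 CPM in cool bright light and at 203, 198 and 181 in warm bright light. The cool, dim libraries were above all others, and the 2 bright groups overlapped. It fell with warmth at light 10 (-0.58 ± 0.11, edgeR adjusted p = 0.000134) and with light at 16 °C (-0.92 ± 0.11, edgeR adjusted p = 1.35e-08), and the warmth responses at the 2 lights differed by 0.75 ± 0.16 (edgeR adjusted p = 0.00147). In cool dim light it was lower than in Col-0 in Atpif4-2 (-0.52 ± 0.11, edgeR adjusted p = 0.00104), at 226, 217 and 244 CPM, and in Atphyb-9 (-0.71 ± 0.11, edgeR adjusted p = 4.91e-06), at 203, 193 and 203 CPM. Both mutants were below all Col-0 libraries there. Its warmth response at light 10 differed from that of Col-0 by 0.72 ± 0.16 in Atpif4-2 (edgeR adjusted p = 0.00207).

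In Col-0 most of a list of 20 other genes of dark-treated or energy-starved leaves rose with warmth at light 100 and fell with light at 16 °C, as ASN1 did, and 12 also rose with warmth at light 10, where ASN1 was not called. Warmth raised 18 and lowered 1 at light 100 (median 1.22 against 0.01 over all genes), raised 12 and lowered none at light 10 (0.55 against 0.00), and light lowered 18 and raised 1 at 16 °C (-1.22 against 0.02) and lowered 10 and raised none at 24 °C (-0.40 against 0.02). The interaction was positive for 10 and negative for none (0.79 against 0.03). Of all genes 35.9, 22.8, 37.0, 28.6 and 7.17% were called in these comparisons, in the same order. DIN10, a raffinose synthase gene, rose with warmth at light 100 from 115 to 511 CPM (2.15 ± 0.18, edgeR adjusted p = 1.32e-12). TPS8, of the trehalose-phosphate synthase family, rose from 11.4 to 39.4 CPM (1.79 ± 0.16, edgeR adjusted p = 4.79e-12), and KING1, a regulatory subunit of the SnRK1 energy-sensing kinase, from 21.1 to 49.4 CPM (1.22 ± 0.12, edgeR adjusted p = 1.65e-10).

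In Athy5-2 the list and ASN1 went different ways under warmth at light 100. There 14 of the 20 rose and none fell (median 0.61 against 0.02), where 42.6% of all genes were called, while ASN1 fell. The call of that fall depended on single libraries, as given with ASN1 above. TPS8 rose from 12.3 to 64.8 CPM (2.398 ± 0.16, edgeR adjusted p = 4.02e-15), DIN10 from 161 to 427 CPM (1.41 ± 0.17, edgeR adjusted p = 1.32e-08) and KING1 from 24.8 to 42.8 CPM (0.79 ± 0.12, edgeR adjusted p = 1.04e-06). Compared with the response of Col-0, the response in Athy5-2 was lower for 9 of the 20 and higher for 2, against 20.9% of all genes called. Among the higher was TPS8 (0.61 ± 0.22, edgeR adjusted p = 0.0383). DIN1, a senescence-linked gene that was also lower than in Col-0 in warm bright light (-1.36 ± 0.28, edgeR adjusted p = 0.000936), had a difference in response of -2.09 ± 0.40 (edgeR adjusted p = 0.000303). In Atphyb-9 8 of the 20 rose and none fell (median 0.30), against 22.0% of all genes called, and the response was lower than in Col-0 for 15 and higher for 1, against 11.4%. In Atpif4-2 18 rose and none fell (median 1.12), against 30.4%, and the response differed from that of Col-0 for 1 gene, upward, against 2.04%. No test compared the list with ASN1.

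**Figure D4:**
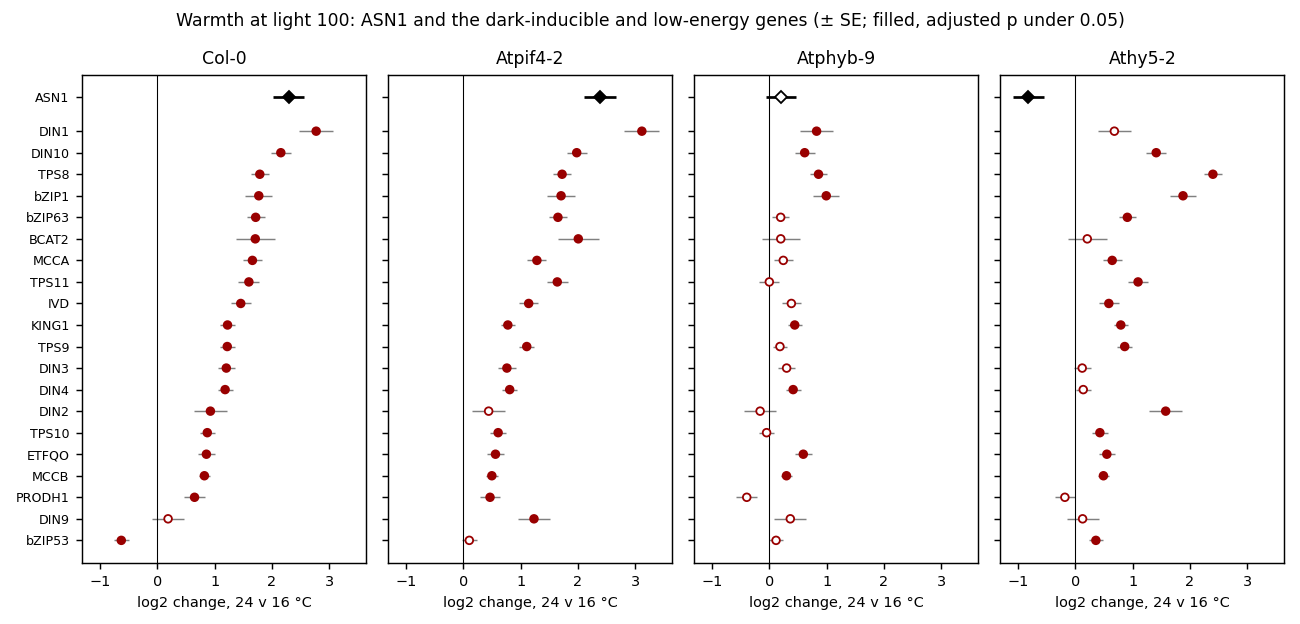
Log2 change with warmth at light 100 of ASN1 (diamond) and of 20 dark-inducible and low-energy genes (circles), ± SE, in the 4 lines on a common axis; filled symbols passed the edgeR threshold. In Athy5-2 the diamond lies left of 0, at -0.82, while 14 circles are filled and lie right of 0.

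Of 25 regulators of the nitrate response, warmth at light 100 raised 6 and lowered 4 in Col-0, against 35.9% of all genes called, and warmth at light 10 raised 4 and lowered 3, against 22.8%, with medians of 0.08 and 0.02. Both counts lay near the shares of all genes. Light at 16 °C raised 4 and lowered 9 (37.0% of all genes), and light at 24 °C raised 7 and lowered 7 (28.6%), with medians of 0.02 and -0.06. The interaction was positive for 2 and negative for 2 (7.17% of all genes), a count of 4 that was 2 without replicate 1 in warm bright light. HHO1, a nitrate-induced repressor of NRT2 genes, rose with light at 16 °C from 0.790 to 6.49 CPM (3.02 ± 0.35, edgeR adjusted p = 4.62e-09). LBD39, a repressor of nitrate reductase and transporter genes, fell in the same comparison from 81.8 to 44.9 CPM (-0.86 ± 0.12, edgeR adjusted p = 1.13e-07). NLP7, the transcription factor that binds nitrate, rose with warmth at light 100 from 52.7 to 76.1 CPM (0.53 ± 0.10, edgeR adjusted p = 4.13e-05).

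Photorespiration releases ammonium in leaves, and of its 19 listed genes light raised 12 and lowered 1 at 16 °C (median 0.44 against 0.02) and raised 10 and lowered 1 at 24 °C (0.32 against 0.02). Warmth raised 3 and lowered 8 at light 10 (-0.24 against 0.00) and raised 2 and lowered 8 at light 100 (-0.20 against 0.01). In the same order 37.0, 28.6, 22.8 and 35.9% of all genes were called, and 7.17% for the interaction. The interaction was positive for 1 and negative for 2, and that count of 3 was 1 when any of 8 of the 12 Col-0 libraries was left out, namely replicates 1 and 2 at 16 °C at both lights, replicates 2 and 3 in warm dim light, and replicates 1 and 3 in warm bright light. GGT2, a glutamate-glyoxylate aminotransferase, rose with light at 16 °C from 21.3 to 47.3 CPM (1.15 ± 0.11, edgeR adjusted p = 4.84e-11), and GLDH1, a subunit of glycine decarboxylase, fell with warmth at light 100 from 263 to 133 CPM (-0.99 ± 0.12, edgeR adjusted p = 2.15e-08). Of the 12 root markers warmth at light 100 raised 2 and lowered 3, and of the 6 shoot markers it raised 2 and lowered 1, against 35.9% of all genes called; the summed shoot markers, lower at 24 °C, are given with GLN2.

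Counted over the lines, 22 of the 36 tests of the 9 genes within Atpif4-2 were called, 12 higher and 10 lower, where 31.9% of all such tests were called (16.3% higher, 15.6% lower). Within Atphyb-9 17 of 36 were called, 5 higher and 12 lower, against 31.9% (15.9% higher, 16.0% lower). Within Athy5-2 22 of 36 were called, 5 higher and 17 lower, against 46.5% (23.4% higher, 23.0% lower). For warmth at light 10, warmth at light 100, light at 16 °C and light at 24 °C in that order, Atpif4-2 had 3, 7, 8 and 4 of the 9 genes called, against 27.7, 30.4, 48.6 and 20.9% of all genes. Atphyb-9 had 4, 1, 7 and 5, against 23.0, 22.0, 45.0 and 37.6%. Athy5-2 had 4, 6, 7 and 5, against 41.1, 42.6, 43.5 and 58.7%. The 1 gene called for warmth at light 100 in Atphyb-9 was NIA2.

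Set against Col-0 in the same condition, the mutants were lower in most of the calls. Atpif4-2 had 5 calls in 36, all lower, against 7.54% over all genes (3.58% higher, 3.96% lower). They were 4 of the 9 genes in cool dim light (NIA2, NIR1, GLU1 and ASN2) against 20.7% of all genes. It had none in warm dim light, where 4.26% of all genes were called, 1 in cool bright light (ASN1, 4.77%) and none in warm bright light (0.447%). The lower ASN1 in cool bright light (-0.94 ± 0.27, edgeR adjusted p = 0.0383) was not called without any 1 of 5 of the 6 libraries, the exception being Atpif4-2 replicate 1 (edgeR adjusted p up to 0.231). Atphyb-9 had 14 calls, 4 higher and 10 lower, against 17.6% over all genes (8.87% higher, 8.74% lower). They were 3, 4, 4 and 3 of the 9 genes in cool dim light, warm dim light, cool bright light and warm bright light, against 29.2, 17.6, 12.8 and 10.9% of all genes. Of the 4 higher calls NRT1.1 had 3 and ASN1 had 1, and NRT1.1 also had 1 of the lower calls. With the ribosomal RNA share as a covariate the 14 became 9. Athy5-2 had 9 calls, 2 higher and 7 lower, against 27.5% over all genes (13.9% higher, 13.6% lower), a count near that share. They were 1, 3, 1 and 4 of the 9 genes in the same order, against 28.3, 46.5, 22.2 and 13.1%. Only the count in warm bright light was above its share. The 4 in warm bright light were ASN1, NIA1 (-0.76 ± 0.15, edgeR adjusted p = 0.000248) and GLN2, all lower, and NRT1.1, which was higher (0.56 ± 0.11, edgeR adjusted p = 0.000359); that of GLN2 (-0.36 ± 0.11, edgeR adjusted p = 0.0214) was lost without replicate 1 or 2 of Col-0 or replicate 1 or 3 of Athy5-2 (edgeR adjusted p = 0.0506 to 0.0969). All 3 mutants were compared with the same Col-0 libraries.

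**Figure D5:**
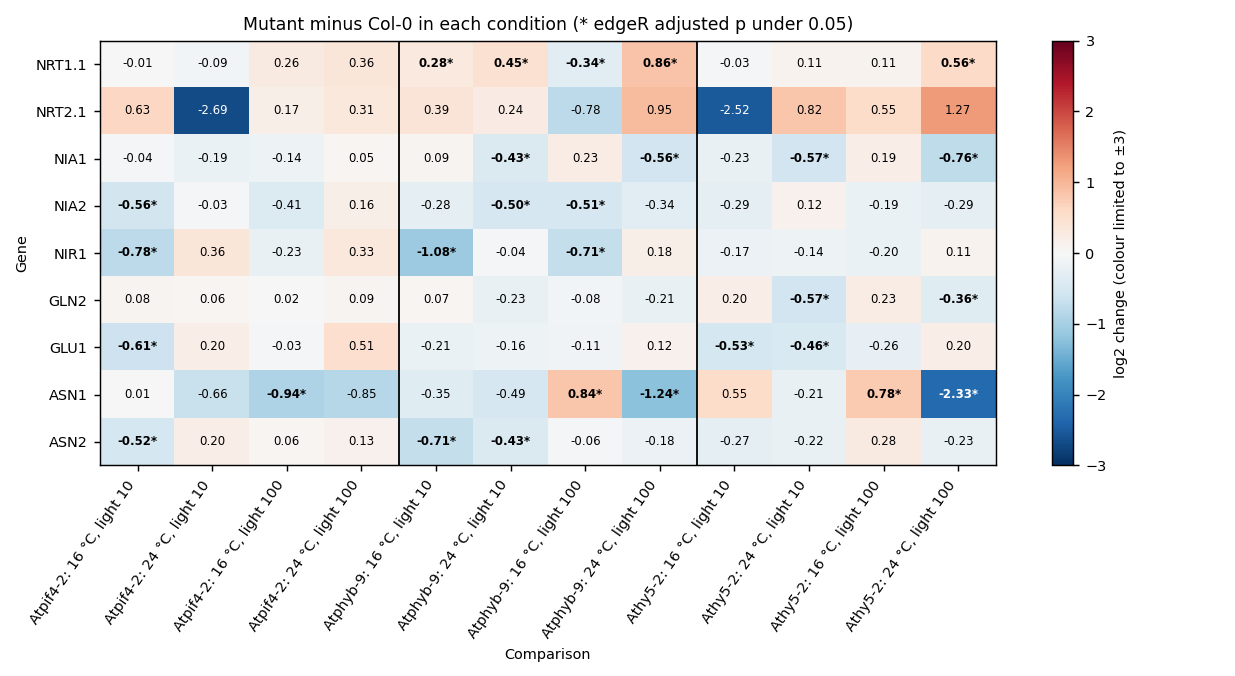
Log2 difference of each mutant from Col-0 in each condition for the 9 genes, with red for higher in the mutant and blue for lower and an asterisk for an edgeR adjusted p under 0.05. ASN1 in warm bright light is at -0.85 in Atpif4-2, -1.24 in Atphyb-9 and -2.33 in Athy5-2.

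Differences in response between a mutant and Col-0 were called in 5 of 36 tests for Atpif4-2, all higher, against 4.33% over all genes (2.34% higher, 2.00% lower). For Atphyb-9 8 were called, 5 higher and 3 lower, against 8.60% (4.04% higher, 4.56% lower). For Athy5-2 10 were called, 4 higher and 6 lower, against 19.2% (8.90% higher, 10.3% lower). In the order warmth at light 10, warmth at light 100, light at 16 °C and light at 24 °C, Atpif4-2 had 4, 0, 1 and 0 of the 9 genes called, against 12.6, 2.04, 2.27 and 0.421% of all genes. Atphyb-9 had 1, 4, 3 and 0, against 14.4, 11.4, 7.54 and 1.00%, and Athy5-2 had 1, 5, 1 and 3, against 22.2, 20.9, 3.40 and 30.3%. The 5 of Atpif4-2 became 8 by DESeq2, and 3 without replicate 2 or 3 of Col-0, or replicate 1 or 2 of Atpif4-2, in cool dim light.

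Some genes shared the pattern of a member over the 16 group means of log2 CPM (Pearson's r among 6514 genes with a symbol and at least 5 CPM, a description over groups that share lines and conditions). Nearest to ASN1 were RABA5E (0.97), AL3 (0.97) and PGL1 (0.96). Nearest to NIA1 were LCL1 (0.95), INT1 (0.94) and SYP51 (0.94), and to NIA2 LBD37 (0.92), COL4 (0.92) and PTR1 (0.92). Nearest to GLU1 were EMB1030 (0.96), DWA3 (0.96) and PAH1 (0.94), to NIR1 PnsL3 (0.92), HIS4 and Hsp81.4 (0.91), and to NRT2.1 SDH2-2 (0.94), SDH2-1 (0.92) and EMB1467 (0.92). For NRT2.1, whose counts were low, a prior count of 0.5 in place of 2 put PPa5 (0.89) in the place of EMB1467, while the neighbours of the other genes were the same. NRT1.1 was nearest to HA2 (0.88), CI51 (0.86) and MPPBETA (0.85), GLN2 to ATPD (0.89), TED4 (0.87) and SAMTL (0.87), and ASN2 to ACA4 (0.87), TIFY8 (0.85) and GME (0.84). Among the 9 themselves, ASN1 ran with NIA1 (0.92) and NIA2 (0.87), and against GLU1 (-0.77) and NRT2.1 (-0.75), while ASN1 and ASN2 had 0.61 and NIA1 and NIR1 -0.49.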

How the data were processed

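RNA of whole seedlings was extracted with a NucleoSpin RNA Plant kit and sequenced by BGI as paired DNBseq reads, according to protocols in the labels. The submitters' processing notes list FastQC (0.11.5) and the aligner HISAT2 (2.1.0). Which program counted the reads, on which build and annotation, and whether it used strand, is not stated in those sources. The deposited table holds whole-number counts per gene, not normalized, with 48 libraries in 16 groups of 3 and 32833 genes, 3604 of them at 0 throughout. Without known strand use, overlapping antisense genes cannot be told apart.

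Counts were fitted over all 48 libraries with edgeR 4.0.16 (limma 3.58.1, R 4.3.3): filterByExpr with a minimum count of 10 (22828 genes kept), TMM factors (0.501 to 1.51), 1 mean per group, robust quasi-likelihood F tests with 32 residual degrees of freedom, a common biological coefficient of variation of 0.204, and Benjamini-Hochberg adjustment over all tested genes in each comparison, called under 0.05. Adjusted p-values marked edgeR are these. The F statistic gave the standard error of each log2 change, and CPM values carry SDs over 3 libraries. A group at 0 was given a limit of 3 counts; limits and intervals of counts cover counting error only. No duplicates were found among the 3 libraries within each group, and libraries of different groups were not compared for duplication. The fitting was tested on simulated data of 22527 genes for Col-0 warmth at light 100. There 71 of 100 genes changed 2-fold and 26 of 100 changed 1.5-fold were called in the right direction. Changes of that smaller size were mostly missed in the simulation. All its other genes were unchanged, whereas 35.9% of all genes were called in the real comparison, so these rates do not carry over to it.

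The members and lists were chosen with earlier results of these data known. Besides the 9 members, at most 4 genes per list and Col-0 comparison are named, those called with the smallest adjusted p, and the 3 genes nearest to each member in pattern (log2 CPM, prior count 2). For the list of dark-inducible and low-energy genes, the mutants' values of genes named so are given too. Alternatives were DESeq2 1.42.0, RLE scaling, no low-count filter, the compared lines alone, a replicate block, the ribosomal RNA share as a covariate, and each library left out (with the filter and dispersion trend of the full fit kept). The 3 other species' tables were not analysed here.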

Additional observations from a re-analysis of the deposited data

Results flagged for a closer look

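The values below are responses that differed between conditions or lines by a direct test of the difference (edgeR's quasi-likelihood test, adjusted p under 0.05 over all genes), as log2 differences ± SE with 3 libraries a group. In Col-0 the response to warmth at light 100 minus that at light 10 was -1.07 ± 0.16 for NRT1.1, 0.87 ± 0.21 for NIA1, 2.133 ± 0.38 for ASN1 and 0.75 ± 0.16 for ASN2.

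For Atpif4-2 minus Col-0, the response to warmth at light 10 differed by 0.53 ± 0.18 for NIA2, 1.14 ± 0.17 for NIR1, 0.82 ± 0.21 for GLU1 and 0.72 ± 0.16 for ASN2, and the response to light at 16 °C by 0.58 ± 0.16 for ASN2. The NIA2 difference (edgeR adjusted p = 0.0448) was lost without Col-0 replicate 2 or 3 at 16 °C, Col-0 replicate 1 or 3 at 24 °C, any Atpif4-2 replicate at 16 °C or Atpif4-2 replicate 3 at 24 °C (edgeR adjusted p up to 0.167). That of ASN2 with light (edgeR adjusted p = 0.0403) was lost without Col-0 replicate 2 or 3 or Atpif4-2 replicate 1 or 2 at light 10, or Col-0 replicate 1 or 3 or Atpif4-2 replicate 1 or 2 at light 100 (edgeR adjusted p up to 0.131).

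For Atphyb-9 minus Col-0, the response to warmth at light 10 differed by 1.04 ± 0.17 for NIR1. At light 100 it differed by 1.203 ± 0.16 for NRT1.1, -0.79 ± 0.21 for NIA1, 0.89 ± 0.17 for NIR1 and -2.08 ± 0.38 for ASN1. The response to light at 16 °C differed by -0.63 ± 0.16 for NRT1.1, 1.19 ± 0.37 for ASN1 and 0.65 ± 0.16 for ASN2. The ASN1 difference with light (edgeR adjusted p = 0.0436) was lost without any of 10 of the 12 libraries, the exceptions being Col-0 replicate 2 at light 10 and Atphyb-9 replicate 2 at light 100 (edgeR adjusted p up to 0.154).

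For Athy5-2 minus Col-0, the response to warmth at light 10 differed by -0.77 ± 0.16 for GLN2. At light 100 it differed by 0.45 ± 0.16 for NRT1.1, -0.96 ± 0.21 for NIA1, -0.59 ± 0.16 for GLN2, -3.11 ± 0.38 for ASN1 and -0.51 ± 0.16 for ASN2. The response to light differed by 0.55 ± 0.16 for ASN2 at 16 °C, and at 24 °C by 0.45 ± 0.16 for NRT1.1, 0.66 ± 0.20 for GLU1 and -2.12 ± 0.38 for ASN1. The NRT1.1 difference with warmth (edgeR adjusted p = 0.035) was lost without Col-0 replicate 2 at 16 °C, any Col-0 replicate at 24 °C, Athy5-2 replicate 1 or 3 at 16 °C, or Athy5-2 replicate 1 or 2 at 24 °C (edgeR adjusted p up to 0.103). That of ASN2 with warmth was 0.054 without Athy5-2 replicate 2 at 16 °C (edgeR adjusted p). That of ASN2 with light (edgeR adjusted p = 0.0426) was lost without Col-0 replicate 2 or 3 or Athy5-2 replicate 2 or 3 at light 10, or Col-0 replicate 1 or 3 or Athy5-2 replicate 2 or 3 at light 100 (edgeR adjusted p up to 0.116). That of GLU1 had an edgeR adjusted p of 0.191 with the ribosomal RNA share as a covariate and 0.0588 without Athy5-2 replicate 1 at 24 °C and light 10. That of NRT1.1 with light was lost without Col-0 replicate 1 or Athy5-2 replicate 2 at 24 °C and light 10, or Athy5-2 replicate 2 at 24 °C and light 100 (edgeR adjusted p up to 0.0632).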

How the results depend on the processing

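No member's change that was called in the main or the alternative fit reversed its sign under any alternative. The signs of changes called in neither were not compared. With every library kept, the counts of members called were within 1.5 times of those reported, except that Atpif4-2 response differences went from 5 to 8 with DESeq2 and Atphyb-9 against Col-0 from 14 to 9 with the ribosomal RNA share as a covariate. Leaving out 1 library at a time gave, in Col-0, 2 for warmth at light 10, 5 to 6 for warmth at light 100, 6 to 8 for light at 16 °C, 5 for light at 24 °C and 4 for the interaction. It gave 19 to 23 within Atpif4-2, 4 to 6 against Col-0 and 3 to 6 in response, the 3 in 4 cases; 12 to 17, 12 to 14 and 6 to 8 for Atphyb-9; and 21 to 24, 8 to 11 and 8 to 10 for Athy5-2. No pairing of the libraries by replicate number was seen: 3 of 84 correlations between same-numbered libraries were over 0.1, and 13 of 48 libraries correlated best with their own number. With a replicate block 5 calls were lost, with edgeR adjusted p of 0.0508 (NIA2, Atpif4-2 response to warmth at light 10), 0.051 (ASN2, Atphyb-9 warmth at light 10), 0.0574 (NRT1.1, Atphyb-9 against Col-0 at 16 °C and light 10), 0.0523 (ASN1, Atphyb-9 response to light at 16 °C) and 0.0511 (ASN2, Athy5-2 response to light at 16 °C). The covariate ended 20 of the members' calls, the low-count filter's absence 8, the compared lines alone 8 and RLE scaling 1. New calls numbered 17 with DESeq2, 15 with the compared lines alone, 14 with the covariate and 3 with RLE scaling. Those ended by the covariate were, in Col-0, NRT2.1 for light at 16 °C and GLU1 for light at 24 °C. In Atpif4-2 they were NIA2 and GLU1 for warmth at light 10 and NRT2.1 for light at 16 °C. In Atphyb-9 they were NIA2 and ASN2 for warmth at light 10, GLN2 and GLU1 for light at 16 °C, the ASN1 response difference for light at 16 °C, and, against Col-0, NRT1.1, NIA1, NIA2 and ASN2 in warm dim and NIA1 in warm bright light. In Athy5-2 they were NIA1 for warmth at light 10, NIR1 for light at 24 °C, NIA1 and GLU1 against Col-0 in warm dim light, and the GLU1 response difference for light at 24 °C. List counts under these settings were added after seeing the data and moved in 21 of 396 cases.

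Counts over all genes moved by over 1.5 times in 21 of 246 cases with every library kept and in 50 of 324 with 1 library left out. The latter took the Col-0 interaction from 1636 to 1038 genes (without replicate 1 in warm bright light). They took Atpif4-2 against Col-0 to as few as 480 in warm dim, 500 in cool bright and 34 in warm bright light, and its response differences to as few as 209, 205 (or as many as 923) and 37 for warmth at light 100, light at 16 °C and light at 24 °C. For Atphyb-9 the lowest were 2560, 1778 and 1395 against Col-0 in those 3 conditions, and 1702 and 121 for the responses to warmth at light 100 and light at 24 °C. For Athy5-2 they were 2866 and 1755 against Col-0 in cool and warm bright light, and 447 for the response to light at 16 °C. With the compared lines fitted alone, the Col-0 interaction went from 1636 to 2816 genes and Atpif4-2 against Col-0 in warm dim light from 973 to 1587. Atpif4-2 against Col-0 in warm bright light went from 102 to 253 (DESeq2), 207 (covariate) and 199 (lines alone). Atpif4-2 response differences went from 465 to 752 for warmth at light 100 (DESeq2), from 518 to 955, 1214 and 1161 for light at 16 °C (DESeq2, covariate, lines alone) and from 96 to 210 and 190 for light at 24 °C (DESeq2, lines alone). With the covariate, Atphyb-9 went from 10262 to 6455 for light at 16 °C, from 8577 to 4843 for light at 24 °C and from 4013 to 2159 against Col-0 in warm dim light. Its response difference for light at 24 °C went from 229 to 569 (DESeq2) and 421 (covariate). For Athy5-2 the covariate took light at 24 °C from 13399 to 5685, the difference from Col-0 in cool bright light from 5073 to 3357 and the response difference for light at 24 °C from 6928 to 3908. The Athy5-2 response difference for light at 16 °C went from 776 to 1261 (DESeq2) and 1293 (covariate). The causes were not tested. Depth limits NRT2.1, whose lowest group held 2 counts.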
